A study of Mus musculus with 3 samples.

Results

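The immediate early and dissociation response genes described here are 10 genes of the 31053 that all libraries measured, namely Fos, Fosb, Jun, Junb, Jund, Egr1, Ier2, Atf3, Zfp36 and Dusp1. They were taken by symbol from the feature lists, and all 10 were found in all 3 libraries. Immediate early genes are transcribed within minutes of a stimulus, without new protein synthesis, after kinase cascades reach transcription factors already bound at their promoters. Fos, Fosb, Jun, Junb and Jund encode subunits of the dimeric transcription factor AP-1, Egr1 encodes a zinc finger transcription factor, Atf3 a stress-induced bZIP factor and Ier2 a small nuclear protein. Zfp36 and Dusp1 act as brakes: Zfp36 encodes tristetraprolin, which promotes decay of AU-rich mRNAs, and Dusp1 encodes a phosphatase that inactivates MAP kinases. In vessels these genes respond to shear stress, growth factors and cytokines, and enzymatic dissociation of a tissue into single cells is a well known inducer of them.

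The libraries hold endothelial cells (EC) dissociated and sorted from mouse Peyer's patches (PP), the lymphoid follicles of the gut wall, and assayed by 10x 3′ single-cell sequencing. The control library is labelled WT and C57BL/6, and 2 libraries, EC-iCOUPOE replicates 1 and 2, come from CDH5(PAC)CreERT2;COUP-TFIIOE/OE mice, which overexpress the nuclear receptor COUP-TFII, encoded by Nr2f2, in EC after tamoxifen. The Cdh5 promoter drives the Cre recombinase in endothelium, and the study describes its controls as Cre-negative and WT mice that also received tamoxifen. Mice of both genotypes were 6 to 10 weeks old and were taken 14 to 19 days after tamoxifen, cohorts of males and females were processed together, and how many animals each library holds is not given in the sources used here. With 1 control library the spread between control libraries could not be measured, so no test between the genotypes was run and every difference between them is given as values. The question addressed is whether the levels of the 10 genes follow the cell type or the library.

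After filtering, the control, replicate 1 and replicate 2 held 5341, 4704 and 1239 cells with a median of 2514, 2946 and 2318 UMIs (unique molecular identifiers, 1 per captured transcript). Levels are UMIs summed over the cells of a type in a library and scaled to a common total (CPM). Nr2f2, the overexpressed gene, stood in capillary EC (CapEC) at 18.2 CPM in the control, 2027 in replicate 1 and 1164 in replicate 2. Replicate 1 differs from both other libraries in its file header, which names Cell Ranger 3.1.0 in place of 3.0.2, and it shared 0 cell barcodes with either, whereas the control and replicate 2 shared 12. The labels name both a v3 platform and a v2 kit for every library, and whether the chemistry of replicate 1 differed could not be settled here. Although the cells are labelled blood EC, the control held 2486 fibroblasts, and replicate 1 held 922 lymphatic EC (LEC). Blood EC were clustered without the 10 genes and without 57 other response genes and named by markers, which gave CapEC, lamina propria CapEC (LP CapEC), capillary resident progenitors (CRP), arterial EC, postcapillary venule (PCV), high EC (HEC) and unnamed clusters, of which Cluster 4 (leading genes Colec12 and Ltc4s) and Cluster 9 (Bmp2 and Pi16) are used below. The study's own subset labels cover EC-iCOUPOE cells only. In Cluster 9 they name 85 cells PP capillary. In Cluster 4 they name 87 cells HEC, 52 PP capillary, 11 PCV and 1 CRP. Mural cells are pericytes and smooth muscle cells, in which the Cdh5 promoter is not normally active. In total 9 types had at least 20 cells in every library.

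The 10 genes together took a larger share of the RNA in mural cells, Cluster 9, arterial EC and PCV than in HEC, CRP and dividing cells. Their summed level in mural cells was 26565 CPM in the control, 22605 in replicate 1 and 24645 in replicate 2. In PCV it was 17785, 18439 and 24383 CPM in the same order, and in CRP, the small stem-like capillary population, it was 4135, 6230 and 12671 CPM. Every library thus had PCV above CRP, and the gap was smallest in replicate 2. CRP were named here by markers, and the study's own labels, which cover EC-iCOUPOE cells only, differ. Of these cells, 38 are labelled PP capillary, 26 CRP and 2 lamina propria capillary. HEC, which line the high endothelial venules where lymphocytes enter the tissue, stood at 5653 CPM in 381 control cells and 4218 CPM in 86 cells of replicate 1. LEC had the lowest sum of the EC-iCOUPOE types, at 2840 CPM in the 922 cells of replicate 1 and 4727 CPM in the 126 cells of replicate 2. LEC were not shallow, with a median of 2392 UMIs in replicate 1, where CapEC had 2186. Within the control the sums of arterial EC (20609 CPM) and fibroblasts (20420 CPM) had overlapping counting intervals, as did those of CapEC (9252 CPM) and Cluster 4 (9210 CPM), so those neighbours in the order could not be separated. Intervals on levels are exact 95% Poisson intervals and cover counting error only. In the LEC of replicate 1 Atf3 was at 73.8 CPM and Fos at 500.7 CPM, against 731 and 3059 CPM in its CapEC. The control held 3 LEC and gives no such value, and the part of free RNA in these levels was not tested.

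**Figure D1:**
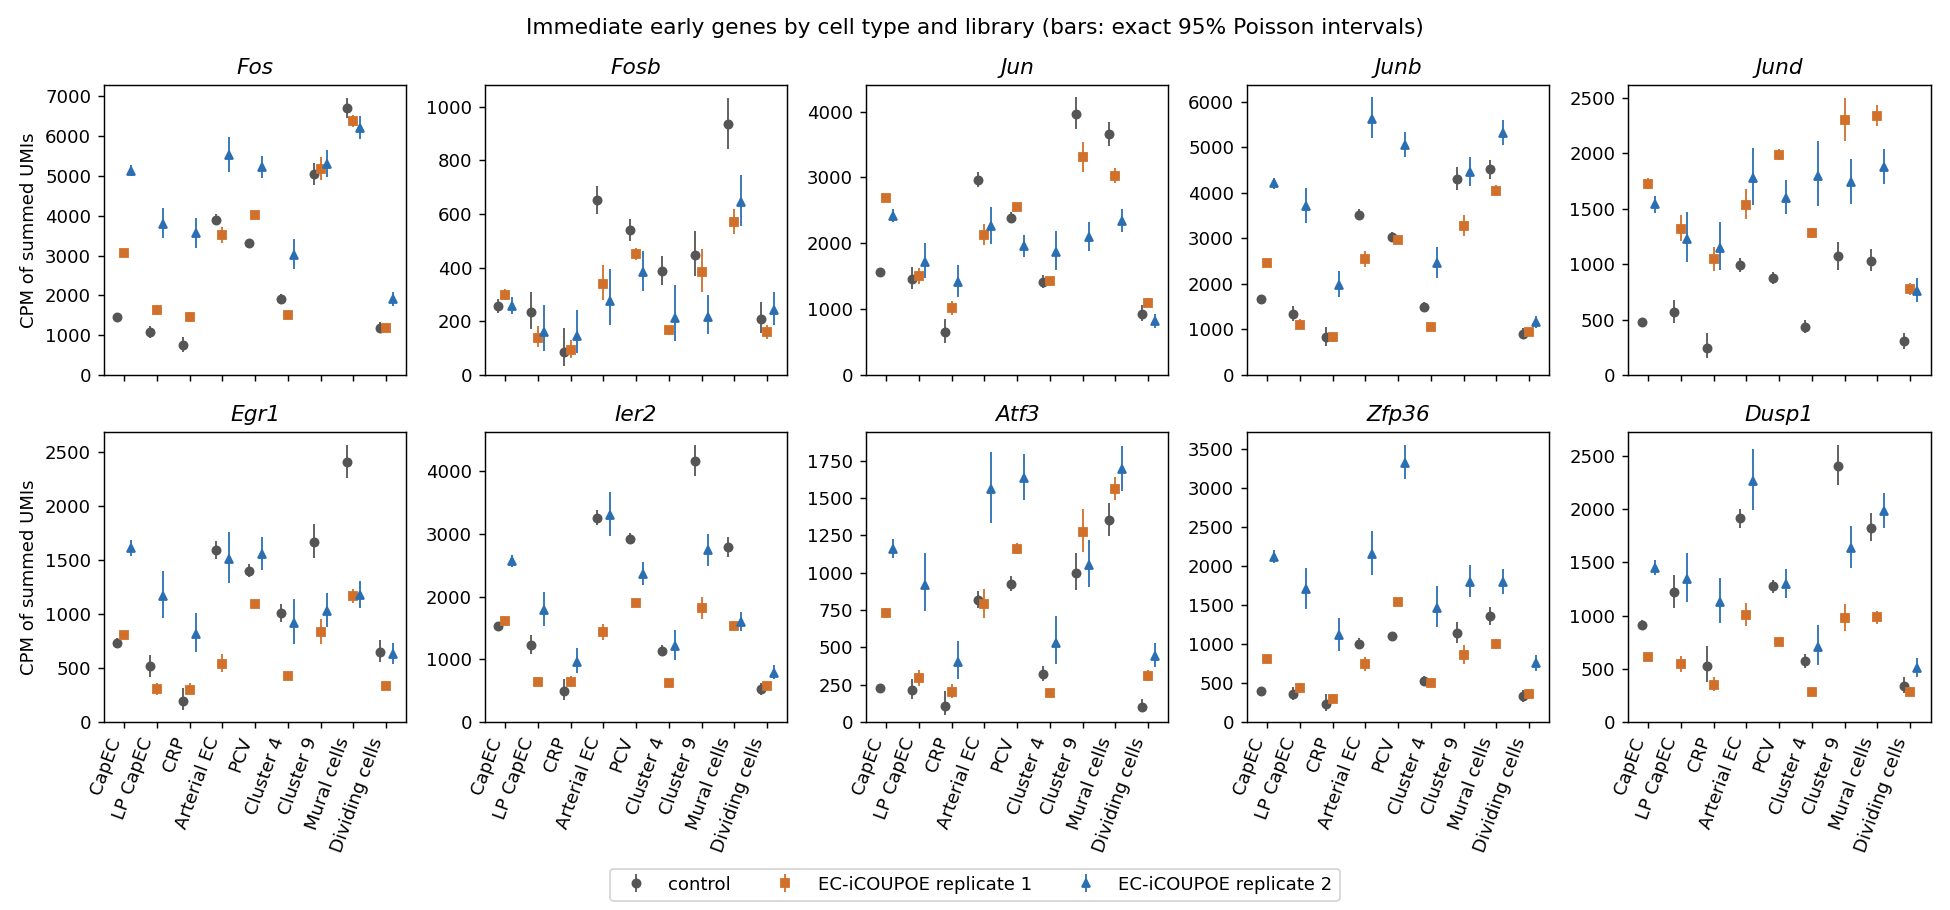
Level of each of the 10 genes (vertical axis, CPM of summed UMIs, starting at 0) in the 9 cell types with at least 20 cells in every library (horizontal axis); points are libraries and bars exact 95% Poisson intervals. Jund of the control lies below both EC-iCOUPOE libraries in every type, whereas Fos of the 3 libraries lies together over all mural cells, between 6212 and 6710 CPM, and apart in CapEC, between 1457 and 5133 CPM.

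Differences between cell types were tested over the 3 libraries with edgeR's quasi-likelihood test, the library as a block and Benjamini-Hochberg adjustment over all genes tested. The SE of a fold change was derived from the test, as the absolute log2 fold change divided by the square root of its F statistic. Nothing states which animals each library came from, so the p-values rest on how the type difference varied over these libraries, not over animals. The libraries are 1 control and 2 EC-iCOUPOE, and each main fit had 2 residual degrees of freedom. In PCV against CapEC 8 of the 10 genes were higher at an adjusted p under 0.05, where 7.79% of all genes were called higher. The smallest adjusted p was that of Zfp36, at 1098, 1538 and 3319 CPM in PCV and 404, 812 and 2118 CPM in CapEC of the control, replicate 1 and replicate 2. PCV exceeded CapEC in every library, although the ranges of the libraries overlapped (log2 fold change 1.09 ± 0.12, SE, adjusted p = 9.81e-06 by edgeR). Atf3, with the largest fold change, was at 927, 1159 and 1634 CPM in PCV and 230, 731 and 1158 CPM in CapEC (log2 fold change 1.13 ± 0.20, SE, adjusted p = 0.000926 by edgeR). Fosb was at 539, 451 and 382 CPM against 255, 299.8 and 257 CPM, without overlap (0.85 ± 0.13, SE, adjusted p = 0.000233 by edgeR). Egr1 and Ier2 passed but were higher in 2 of the 3 libraries, and Jun and Dusp1 did not pass, with adjusted p = 0.465 and 0.101 by edgeR. The median log2 difference of the 10 genes was 0.55 and that of all genes 0.0017. Without replicate 1, 5 of the 10 genes passed, where 420 of 8651 genes were called higher.

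Arterial EC exceeded CapEC in 5 of the 10 genes, where 4.41% of all genes were called higher. Arterial EC were named here by markers, and the study's own subset labels, which cover EC-iCOUPOE cells only, differ. Of the clusters joined as arterial EC, cluster 5 held 64 cells labelled PP capillary and 1 labelled arterial, and cluster 13 held 7 and 10. In the EC-iCOUPOE libraries the contrast thus largely sets cells that the study labels capillary against CapEC. Dusp1 led, at 1913, 1007 and 2266 CPM in arterial EC and 912, 615 and 1449 CPM in CapEC, higher in each library (log2 fold change 0.81 ± 0.13, SE, adjusted p = 0.000101 by edgeR). Fos, Fosb, Junb and Atf3 also passed, and Jun, Jund, Egr1, Ier2 and Zfp36 did not. Without the control the median log2 difference of the 10 genes fell from 0.47 to 0.12 and 1 of them passed, where 369 of 7414 genes were called higher. Without replicate 1, 3 passed, where 178 of 8198 genes were called higher. In Fos the control had 3905 CPM in arterial EC and 1457 in CapEC, whereas replicate 2 had 5526 and 5133 CPM. In mural cells against all blood EC 5 of the 10 genes were higher, where 10.5% of all genes were, namely Fos, Fosb, Junb, Atf3 and Dusp1. The blood EC differed in make-up between libraries, with 381, 86 and 2 HEC and 0, 593 and 144 cells of an unnamed cluster, Cluster 2. Of the Cluster 2 cells that the study labels, 303 are PP capillary and 5 PCV. The part of this make-up in the contrast was not tested. Fosb was at 933, 571 and 646 CPM in mural cells and 331, 286 and 275 CPM in blood EC, without overlap (log2 fold change 1.20 ± 0.19, SE, adjusted p = 0.00382 by edgeR). Of the 10 genes, 0 passed without replicate 1 (4 at an unadjusted p under 0.05), 1 without the control and 9 without replicate 2. The calls over all genes moved as well, with 537 of 9309, 750 of 9917 and 1284 of 11429 higher in that order. Each of these fits had 1 residual degree of freedom left. LEC and fibroblasts could not be tested, as the control held 3 LEC and the EC-iCOUPOE libraries 8 and 5 fibroblasts.

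Jund, the AP-1 subunit that is also present in unstimulated cells, differed between libraries in every type. In CapEC it was at 482 CPM in the control, 1727 in replicate 1 and 1539 in replicate 2, with log2 ratios to the control of 1.84 (95% counting interval 1.73 to 1.95) and 1.67 (1.55 to 1.80). Both EC-iCOUPOE libraries lay far above the control and near each other. Mural cells showed the same order, at 1033, 2339 and 1878 CPM, with log2 ratios of 1.18 and 0.86. Across the 9 types the ratio ranged from 0.63 to 2.09 in replicate 1 and from 0.70 to 2.23 in replicate 2, above 0 in 9 of 9 types in both. By a fixed rule, both EC-iCOUPOE libraries at least 2-fold above the control, Jund was called higher in 5 types, namely CapEC, LP CapEC, CRP, Cluster 4 and dividing cells. In the 8 and 5 fibroblasts of the EC-iCOUPOE libraries it was at 1741 and 1567 CPM, against 740 CPM in the 2486 of the control. The mural cells carried endothelial RNA to an unequal degree: 35.4%, 48.9% and 5.49% of them held a UMI of Cdh5, the endothelial cadherin, and Nr2f2 stood at 269, 1234 and 635 CPM in them. The summed markers of other cells differed between their libraries as well, with fibroblast markers at 2222, 432 and 457 CPM, smooth muscle markers at 9875, 13385 and 19330 CPM and pericyte markers at 2974, 2167 and 2659 CPM, whose part in the mural values was not tested. In the 31, 23 and 26 mural cells without a UMI of any of 6 blood EC markers, a set chosen after seeing the data, Jund was at 577, 3023 and 2311 CPM and Nr2f2 at 373, 676 and 660.4 CPM. The control value rests on 34 Jund UMIs.

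**Figure D2:**
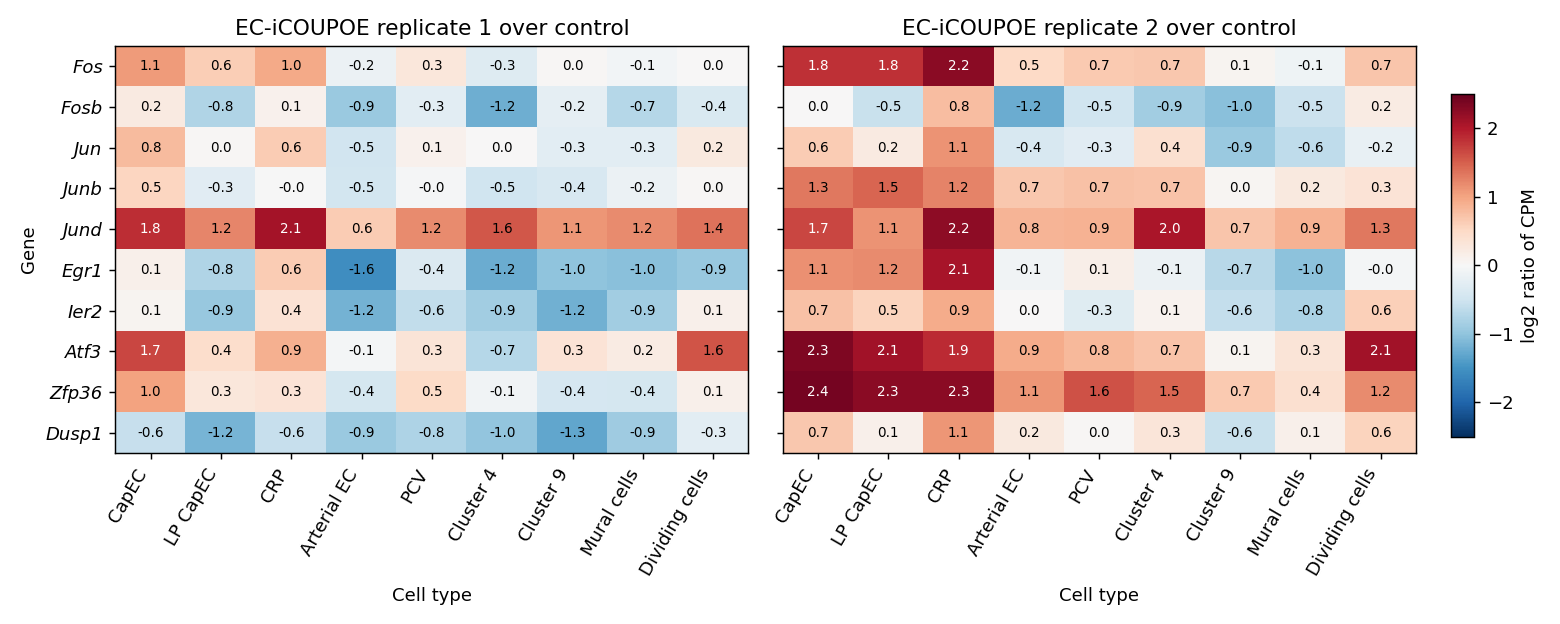
Log2 ratio of CPM in replicate 1 (left) and replicate 2 (right) over the control for each gene (rows) and cell type (columns), with the colour scale from -2.5 to 2.5. Jund is positive in every type in both libraries, Dusp1 is negative in every type in replicate 1, and in replicate 2 Fos and Zfp36 are farthest above the control in the capillary types CapEC, LP CapEC and CRP.

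Fos, which binds DNA as a dimer with a Jun protein, differed between libraries in CapEC and lay close together over all mural cells. In CapEC it was at 1457 CPM in the control, 3059 in replicate 1 and 5133 in replicate 2, a log2 ratio of 1.07 (1.00 to 1.14) and 1.82 (1.75 to 1.89). Over all mural cells it was at 6710, 6378 and 6212 CPM, with ratios of -0.07 and -0.11. In the mural cells without blood EC markers it was at 5768, 8495 and 8048 CPM, with both EC-iCOUPOE libraries above the control (ratios 0.56, 0.36 to 0.76, and 0.48, 0.29 to 0.68), so the closeness was lost there. In arterial EC the ratios were -0.15 and 0.50, on opposite sides of 0. Counting intervals describe these libraries and not the genotypes. In CapEC 4 of the 10 genes, Fos, Jund, Atf3 and Zfp36, were called higher, where 3.88% of all genes were, and none was called lower, where 2.24% were. The calls of Fos and Zfp36 were close to the 2-fold limit in replicate 1. The log2 ratio of Zfp36 was 1.01 there (0.87 to 1.14), so counting error alone spans the limit. In arterial EC (1.09% of all genes higher, 2.81% lower) and PCV (3.1% higher, 1.66% lower) no member was called in either direction. LP CapEC (6.22% higher, 3.3% lower), CRP (8.87% higher, 2.45% lower, with 9 members tested) and Cluster 4 (8.33% higher, 1.35% lower) each had 1 call, Jund. Cluster 9 had none (4.44% higher, 3.1% lower). Dividing cells had 2 calls, Jund and Atf3 (6.84% higher, 2.2% lower). Their make-up differed between libraries, with fibroblast markers at 2264, 1.05 and 7.64 CPM, epithelial markers at 8.001, 687 and 2483 CPM and blood EC markers at 2572, 3537 and 1043 CPM, and its part in these calls was not tested.

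Junb, an AP-1 subunit that often restrains Jun, separated the 2 EC-iCOUPOE libraries from each other. In CapEC it was at 1680 CPM in the control, 2450 in replicate 1 and 4207 in replicate 2. Replicate 2 was above the control in 9 of 9 types and above replicate 1 in 9 of 9, whereas replicate 1 was above the control in 2. Jun, the main partner of Fos, had no common order of libraries across types. In PCV it was at 2390, 2559 and 1958 CPM, and in CapEC at 1560, 2685 and 2420 CPM, so that both EC-iCOUPOE libraries were higher in CapEC and lay on either side of the control in PCV. Fosb was at 255, 299.8 and 257 CPM in CapEC, and in arterial EC at 650.5 CPM in the control against 341 and 276 CPM. Its log2 ratio was below 0 in 7 of 9 types in replicate 1 and in 6 of 9 in replicate 2.

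Atf3, induced by stress and DNA damage, had the largest mean ratio of the 10 genes in CapEC, at 230 CPM in the control, 731 in replicate 1 and 1158 in replicate 2 (log2 ratios 1.67 and 2.33, mean 2.00 ± 0.47, SD, n = 2). In mural cells it was at 1353, 1562 and 1693 CPM. Egr1, the target of serum response and MAP kinase signalling, was lower in replicate 1 than in replicate 2 in 9 of 9 types, in mural cells by a log2 ratio of 0.016. In CapEC it was at 734, 805 and 1614 CPM and in arterial EC at 1595, 543 and 1510 CPM, where replicate 1 alone stood apart. In mural cells it was at 2412, 1167 and 1180 CPM, the only member called lower in any type (mural cells: 1.79% of all genes lower and 2.34% higher), with log2 ratios of -1.05 and -1.03, close to the 2-fold limit. In the mural cells without blood EC markers it was at 1510, 1385 and 1252 CPM, and the call was gone. Ier2 was at 1537, 1612 and 2571 CPM in CapEC and at 3253, 1432 and 3297 CPM in arterial EC. Replicate 1 was the lowest of the 3 libraries in arterial EC, LP CapEC, PCV, Cluster 4, Cluster 9 and mural cells for this gene.

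Of the genes that act as brakes, Zfp36 was highest in replicate 2. In CapEC it was at 404, 812 and 2118 CPM, in arterial EC at 1006, 742 and 2155 CPM and in mural cells at 1353, 996 and 1797 CPM, so that replicate 2 was the highest in each. Over the 9 types its median log2 ratio was 0.12 in replicate 1 and 1.46 in replicate 2. Dusp1 was below the control in 9 of 9 types in replicate 1, by a log2 ratio of -1.30 to -0.26, and above it in 8 of 9 types in replicate 2. In PCV it was at 1274, 750 and 1299 CPM, so that the control and replicate 2 lay together. The 2 libraries of 1 genotype differed by the size used for a call in some members: replicate 2 exceeded replicate 1 at least 2-fold in 7 genes in LP CapEC, in 5 each in CRP, arterial EC and Cluster 4, in 3 in CapEC and in 1 each in PCV, Cluster 9, mural cells and dividing cells. In none of the 9 types was a member 2-fold lower in replicate 2. Of all genes tested, 373 of 6163 were 2-fold lower in CapEC, 137 of 1335 in LP CapEC and 96 of 1184 in CRP. In arterial EC 363 of 3130 were, in PCV 964 of 6737 and in Cluster 4 923 of 6083. In Cluster 9 54 of 969 were, in mural cells 604 of 3249 and in dividing cells 841 of 3230. Over all genes tested, 83 of 1335 were 2-fold higher in replicate 2 in LP CapEC, 289 of 3130 in arterial EC and 240 of 6163 in CapEC. In CRP 61 of 1184 were and in Cluster 4 422 of 6083. The counts were 249 of 6737 in PCV, 81 of 969 in Cluster 9, 202 of 3249 in mural cells and 179 of 3230 in dividing cells. In these last types 1 member is near the share of all genes. Replicate 1 also differs from replicate 2 in its file header and cell barcodes, as given above, and the part of this in these counts was not tested.

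The CapEC of the control and of the EC-iCOUPOE libraries lay mostly in different clusters, 589 of the 852 control cells in one and 776 of the 992 cells of replicate 1 in another. Cluster 2, with 0 control cells and mostly labelled PP capillary by the study, was not counted as CapEC. In replicates 1 and 2 its Fos was at 2580 and 5480 CPM and its Jund at 1278 and 1446 CPM. Its Atf3 was at 618 and 1478 CPM and its Zfp36 at 660 and 2280 CPM. The part of leaving it out in the CapEC calls was not tested. Cluster 7, with 75, 107 and 132 CapEC, was shared in like numbers. There Jund was at 768, 1831 and 1779 CPM and was the only member called, where 5.22% of all genes were called higher. Fos was at 1926, 2580 and 4359 CPM, Atf3 at 267, 499 and 1054 CPM and Zfp36 at 598, 626 and 1792 CPM in that cluster, so that their order over the libraries was kept and replicate 1 lay nearer to the control. In CapEC cluster 10 (125, 31 and 4 cells) the summed level was 9005, 3446 and 10456 CPM, with replicate 1 below the control. It was 8142, 16002 and 24421 CPM in cluster 1 (23, 776 and 297 cells). In cluster 3 (589, 50 and 20 cells) it was 9210, 13813 and 19482 CPM, and in cluster 12 (40, 28 and 46 cells) 3060, 4630 and 9440 CPM. Marking cells by sex from Xist and Y-linked transcripts, CapEC marked female had summed levels of 9777, 15233 and 23507 CPM, and Jund and Atf3 were the members called in them, where 4.09% of all genes were called higher. Fos was at 1595, 3179 and 5533 CPM in these cells, just under 2-fold above the control in replicate 1. Male-marked CapEC had 4373, 13627 and 20453 CPM, with 31 control cells, and 7 members were called, where 8.85% of all genes were. Among blood EC, 1709 were marked female and 113 male in the control. In replicate 1 the numbers were 1285 and 831, and in replicate 2 they were 480 and 164. The sex make-up thus differed between the libraries, and its part in the library difference was not tested. The summed level was lower in cells with a higher share of mitochondrial UMIs. CapEC at or above their library's median share had 9190, 11375 and 21510 CPM in the control, replicate 1 and replicate 2. Those below it had 9326, 18337 and 23353 CPM, and in the control the counting intervals overlapped. They did not in control PCV (16628 and 18940 CPM), mural cells (23089 and 29352 CPM) and arterial EC (20114 and 21153 CPM). The part of the mitochondrial share in the library difference was not tested. With cells of at most 5% mitochondrial UMIs, and with every cell thinned to 1000 UMIs, the members called in CapEC were Fos, Jund, Atf3 and Zfp36.

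To put cell type and library on 1 scale, the sum of squares of log2(CPM + 10) over 9 types and 3 libraries was divided into a part between types, a part between libraries and a rest. The median member had 69.6% between cell types and 18.5% between libraries, against medians of 42.1% and 14.2% over 7540 genes. Jun was the member that followed the cell type most, with 82.1% between types and 0.44% between libraries, and Fosb had 81.9% and 6.13%. Jund followed the library most, with 54.6% between libraries and 37.5% between types. Zfp36 had near equal parts, with 45.6% and 45.5%. The type part rests on 9 types and the library part on 3 libraries. The parts were not scaled for this, which favours the type part. They are therefore to be read beside the medians of all genes, not as sizes of effect. The library part exceeded the cell type part in 2 of the 10 members (20%) and in 1641 of the 7540 genes (21.8%), a like share. The median rest was 11.4% in the members and 34.3% in all genes, which were not matched to the members for level. In Jund the library part separated the control from both others, since the mean over types in replicates 1 and 2 was 1.33 and 1.28 log2 units above the control. In Zfp36 it separated replicate 2, with 0.09 and 1.46, and in Dusp1 it separated replicate 1, with -0.82 and 0.28. The libraries therefore did not stand in 1 order for all 10 genes. Within the 7 blood EC subsets and clusters alone, the median library part of the members rose to 28.7%. The median over all genes in these 7 is not given here, so the rise is no result about the members.

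**Figure D3:**
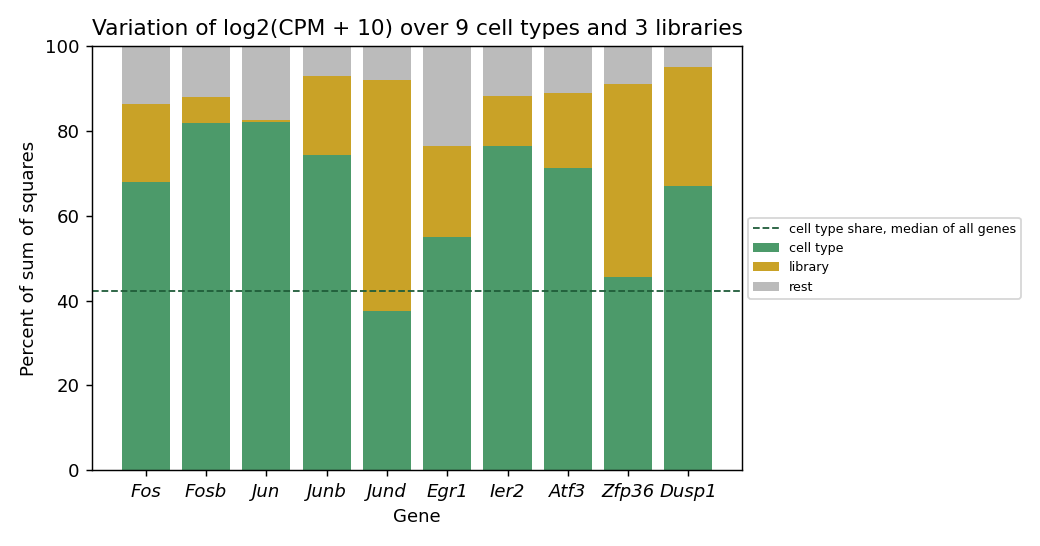
Percent of each gene's sum of squares of log2(CPM + 10) that lies between the 9 cell types, between the 3 libraries and in the rest (bars, adding to 100); the dashed line is the median cell type part of all 7540 genes, 42.1%. Jund and Zfp36 have the largest library parts, 54.6% and 45.6%, and Jun the smallest, 0.44%. The median rest was 34.3% in all genes and 11.4% in the members.

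Within a type the 10 genes varied between cells. In cells thinned to 1000 UMIs, control CapEC had a median of 5 member UMIs, with a 10th to 90th percentile of 1 to 23, CapEC of replicate 1 a median of 12 (1 to 35) and of replicate 2 a median of 22 (4.8 to 38). As a ratio between libraries the medians differed more than the upper ends did. Cells with 20 or more member UMIs made up 16.4%, 35.1% and 58.3% of CapEC in that order, and 42.9%, 47.4% and 55.8% of PCV. In mural cells the medians were 26, 23 and 26. In LEC the median was 1 in replicate 1 and 2 in replicate 2, yet 1.84% and 7.94% of LEC had 20 or more, so some LEC were at the median of PCV cells. The variance was 10.6, 12.8 and 6.73 times the mean in CapEC of the 3 libraries, where Poisson counting alone gives 1. The genes were high in the same cells: all 45 pairs had a positive Pearson r over CapEC of each library, with medians of 0.37, 0.40 and 0.23. These correlations are over cells of 1 library, which share its depth and free RNA.

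**Figure D4:**
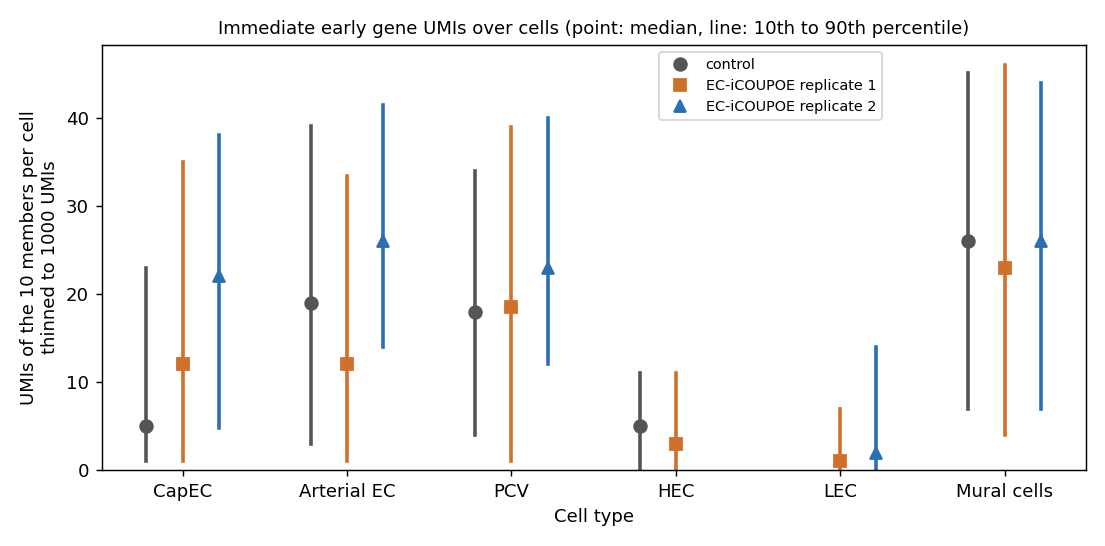
UMIs of the 10 genes per cell after thinning each cell to 1000 UMIs (vertical axis) by cell type and library; points are medians over cells and lines run from the 10th to the 90th percentile, with groups under 20 cells left out. CapEC medians are 5, 12 and 22 in the control, replicate 1 and replicate 2, while those of mural cells are 26, 23 and 26 and those of LEC 1 and 2.

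After thinning, Fos was detected in 46.4% of control CapEC (95% exact interval 43.0% to 49.8%), 65.6% in replicate 1 and 85.2% in replicate 2, against 56.1%, 73.5% and 92.6% before thinning. In LEC it was detected in 15.2% and 27.8% of cells in replicates 1 and 2 after thinning. Atf3 was detected in 12.6%, 28.9% and 50.9% of CapEC. Jund was detected in 33.1%, 65.6% and 66.7% of CapEC and in 34.8% and 34.9% of the LEC of replicates 1 and 2, so that its detection did not separate those replicates in either type. Its summed level did differ, at 583 and 796 CPM in the LEC and 1727 and 1539 CPM in the CapEC of replicates 1 and 2.

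Since the genes moved together across cells, the bases just before their transcription starts are shown. They are given for the 6 of the members searched whose window holds a match to the letters of a known response element. RefSeq promoters (GRCm38.p6) were searched for 8 of the 10 members, over the 250 bases before each start on both strands. Ier2 had no promoter entry and Egr1 was left out of the search, so the counts of members below cover neither. The letters TGACG, the core of the cAMP response element to which CREB and ATF factors bind, were found in 5 of the 8 members and in 17.8% of all 32851 promoters. The letters TATAAA were found in 1 member, Fos, and in 12.4% of promoters, the CArG box, the core of the serum response element, in 1 member, Zfp36, and in 1.47% of promoters, and the AP-1 letters TGANTCA in 0 members and in 6.75% of promoters. Capitals mark these matches, and each stretch of 100 bases runs 5′ to 3′ on the strand of the gene.
Fos, chr12:85473790-85473889, plus strand, ending at the base before the start: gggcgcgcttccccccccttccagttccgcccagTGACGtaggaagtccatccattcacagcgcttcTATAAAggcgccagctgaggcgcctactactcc
Fosb, chr7:19310046-19310145, minus strand, ending at the base before the start: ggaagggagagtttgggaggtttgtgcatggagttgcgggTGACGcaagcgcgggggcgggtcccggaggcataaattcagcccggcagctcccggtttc
Junb, chr8:84978799-84978898, minus strand, its first base 150 bases before the start: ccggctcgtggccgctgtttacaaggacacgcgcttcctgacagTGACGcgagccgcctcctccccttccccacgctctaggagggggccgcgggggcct
Atf3, chr1:191183334-191183433, minus strand, ending at the base before the start: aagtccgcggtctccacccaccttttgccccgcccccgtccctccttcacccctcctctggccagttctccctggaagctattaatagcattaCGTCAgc
Zfp36, chr7:28379229-28379328, minus strand, ending at the base before the start: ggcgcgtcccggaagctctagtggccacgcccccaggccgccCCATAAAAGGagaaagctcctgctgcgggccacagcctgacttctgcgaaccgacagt
Dusp1, chr17:26508573-26508672, minus strand, its first base 200 bases before the start: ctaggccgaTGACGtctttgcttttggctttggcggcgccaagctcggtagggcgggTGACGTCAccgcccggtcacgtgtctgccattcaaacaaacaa

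In Dusp1 the letters occur on both strands at overlapping positions, which gives the longer run of capitals, and in Atf3 they lie on the strand opposite to that of the gene, 7 to 3 bases before the start, so that the stretch shows their reverse complement. Fos holds the letters TGACG again, 129 bases before the start and outside the stretch shown. The RefSeq start used lies 34706 bases from the GENCODE gene start in Atf3, 53656 in Dusp1, 1025 in Zfp36 and 1210 in Jund, which was searched without a match. Nothing here shows which start these cells use. A match is a description of letters and not a binding site. By GENCODE vM21 (GRCm38), Jun, Junb, Jund and Ier2 have a single exon in their longest coding transcript, Jund (ENSMUSG00000071076) at 70698949 to 70700616 on the plus strand of chromosome 8 and Ier2 (ENSMUSG00000053560) at 84661331 to 84662852 on its minus strand.

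Other response genes were examined as lists. Of 40 other immediate early genes, 33 were tested in CapEC and 9 were higher in both EC-iCOUPOE libraries (Ier3, Socs3, Cebpb, Cebpd, Tnfaip3, Rhob, Ctgf, Csrnp1 and Dusp2) and 0 lower, with median log2 ratios of 0.29 and 1.10 in replicates 1 and 2, where all genes had 0.03 and -0.12. Ctgf, a matricellular growth factor gene, was at 2.60, 21.4 and 30.02 CPM, and its ratio is imprecise because the control level is near the floor. Dusp2, a nuclear MAP kinase phosphatase gene, was at 15.6, 150.1 and 135.6 CPM, and Cebpd, a bZIP factor gene of the acute phase response, at 216, 881 and 1415 CPM. Cebpb was at 39.6, 151 and 221 CPM and Csrnp1 at 27.9, 60.3 and 177 CPM. At the other end, Klf4, a quiescence factor gene that shear stress induces in EC, was at 642, 289 and 370.3 CPM, Maff at 37.7, 14.97 and 40.9 CPM, and the chaperone gene Hsp90aa1 at 373, 224 and 289 CPM. Dusp6 was at 120, 72.4 and 92.8 CPM and Klf6 at 252, 146 and 237 CPM. Of 15 heat shock genes, all tested in CapEC, 1 was higher (Hspa1b, at 33.8, 104.8 and 94.6 CPM) and 0 lower, with medians of 0.11 and 0.22. Both metallothioneins had too few UMIs in CapEC to be tested. Among the other types, other immediate early genes were higher in 6 of 15 tested in CRP (8.87% of all genes), 6 of 22 in dividing cells (6.84%), 3 of 19 in LP CapEC (6.22%), 3 of 27 in Cluster 4 (8.33%) and 2 of 20 in Cluster 9 (4.44%). In arterial EC 1 of 28 was higher (1.09%) and 1 lower, in PCV 2 of 34 were higher (3.1%), and in mural cells 1 of 31 was higher (2.34%). In CapEC the share of all genes called higher was 3.88%, as given above.

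The 10 genes whose levels over the 27 profiles of type and library were most like the mean of the members were Csrnp1 (Pearson r = 0.93), Ppp1r15a (0.91), Adamts1 (0.89), Socs3 (0.88), Btg2 (0.88), Nr4a1 (0.87), Gadd45g (0.87), Mettl7a1 (0.82), Lrrc32 (0.82) and Klf9 (0.81). Of these 6 belong to the list of other immediate early genes. The profiles share libraries and depth, and r is a description. Among the members, Junb (0.98) and Fos (0.96) were most like the mean of the other 9, and Jund (0.64) and Fosb (0.71) least.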

How the data were processed

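The authors aligned reads to the mm10 transcriptome with Cell Ranger 3.0.2, per the labels, and deposited raw UMI counts per gene and cell barcode, unscaled. The labels name both a v3 platform and a v2 kit. The 10 genes and all lists were chosen with earlier results of these data known.

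Counts were read with Python 3.11.15. Barcodes under 500 genes, under 1000 UMIs or over 10% mitochondrial UMIs were dropped, Scrublet doublets (scanpy 1.11.5, expected rate 6%, 132, 46 and 4 cells) were removed, and Seurat 5.3.0 was used to integrate the libraries and cluster cells (2000 variable genes, 30 components, 20 neighbours, Louvain resolution 1). Scrublet marked 0.322% of the cells of replicate 2. LP CapEC were told from CapEC by subset labels supplied with the paper, which cover EC-iCOUPOE cells only. Of the LP CapEC with a label, 36 were labelled lamina propria capillary, 32 PP capillary and 10 CRP. UMIs were summed per library and type and scaled to CPM.

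Genotypes were compared by the fixed 2-fold rule among genes with at least 50 UMIs of a type in 1 library or more, in types with at least 20 cells in every library. Cell types with at least 10 cells in every library were tested with edgeR 4.0.16 (adjusted p under 0.05), with DESeq2 1.42.0 as an alternative, and the edgeR fit was tested on simulated data. UMIs count transcript ends and were not scaled by length. All 10 genes are named, other response genes by the 5 largest and 5 smallest mean ratios in CapEC, and the other genes behind a count were named after their values were seen. Alternatives are in the closing section.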

Additional observations from a re-analysis of the deposited data

Results flagged for a closer look

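In 18 cases the log2 ratio to the control was above 0 in both EC-iCOUPOE libraries in CapEC and below 0 in both in another cell type, over the 8 other types compared. These differences were not tested, and all rest on the same control library. The rule sets no size, and the share of all genes that meet it was not computed. The count is therefore no result about the members. For Fos, the mean log2 ratio in CapEC exceeded that in mural cells by 1.54. For Fosb, it exceeded that in LP CapEC by 0.78, in arterial EC by 1.21, in PCV by 0.50, in Cluster 4 by 1.16, in Cluster 9 by 0.75 and in mural cells by 0.74. For Jun, the difference was 1.15 against arterial EC, 1.30 against Cluster 9 and 1.16 against mural cells. For Egr1, it was 1.45 against arterial EC, 1.33 against Cluster 4, 1.49 against Cluster 9, 1.68 against mural cells and 1.13 against dividing cells. For Ier2, it was 0.87 against PCV, 1.31 against Cluster 9 and 1.24 against mural cells.

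Not every ratio in CapEC stood apart from 0. That of Fosb in replicate 2 was 0.01 (95% counting interval -0.21 to 0.24), and that of Ier2 in replicate 1 was 0.07 (-0.0051 to 0.14). In the 31, 23 and 26 mural cells without a blood EC marker UMI, chosen after seeing the data, Fos (5768, 8495 and 8048 CPM), Fosb (559.8, 659 and 660.4 CPM) and Ier2 (1137, 1435 and 1403 CPM) were above the control in both EC-iCOUPOE libraries, and Jun (2833, 3310 and 2256 CPM) in replicate 1, so that the opposite direction was lost for these genes. Egr1 (1510, 1385 and 1252 CPM) was below the control in both. Control and EC-iCOUPOE CapEC fell largely into separate clusters, whose part in these differences was not tested. Cluster 9 cells with a study label are labelled PP capillary, so the differences against Cluster 9 lie largely within cells that the study calls capillary.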

How the results depend on the processing

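Of 158 recomputed counts and medians, 129 stayed within 1.5 times the reported value. In CapEC the count of members called higher stayed at 4 except in female-marked cells (2), male-marked cells (7), cluster 7 alone (1, chosen after seeing the data) and without one EC-iCOUPOE library (4 to 6). Of all genes, 149 of 3639 were higher in female-marked cells, 171 of 1933 in male-marked cells and 46 of 881 in cluster 7. Without replicate 1 it was 366 of 6163, and without replicate 2 it was 470 of 6163. In mural cells the count higher became 1 with TMM scaling, with cells thinned to 1000 UMIs, in male-marked cells and in cells without blood EC markers (chosen after seeing the data), and 0 to 1 without one EC-iCOUPOE library. The count lower became 0 with TMM scaling, thinning, at most 5% mitochondrial UMIs and without blood EC markers. Of all genes, 46 of 3249, 11 of 688, 47 of 1992 and 10 of 253 were lower in that order. In PCV 1 was higher in female-marked cells (155 of 4237 of all genes). Without replicate 1 it was 1 as well (416 of 6737 of all genes), and without replicate 2 also 1 (436 of 6737). In arterial EC 1 was lower in female-marked cells (119 of 2228 of all genes), and without one EC-iCOUPOE library 0 to 1 were higher and 1 to 2 lower. Of all genes, 105 of 3130 were higher and 433 lower without replicate 1, and 110 higher and 308 lower without replicate 2. Counts of 0 to 2 in mural cells, PCV and arterial EC are therefore no result about the members. The median library part became 28.7% in blood EC alone. Of cell type tests, DESeq2 called 1 member higher in arterial EC (209 of 14877 genes) and 4 in PCV (355 of 15381 genes). At most 5% mitochondrial UMIs left 2 in arterial EC (327 of 8676 genes). Leaving out 1 library gave 0 to 9 in mural cells, 1 to 7 in arterial EC and 5 to 9 in PCV. The genes called higher in those fits ran from 537 to 1284, 178 to 424 and 420 to 713 in the same order. Without the control the log2 difference reversed for Ier2 in mural cells (-0.15 to 0.39 over the libraries left out), Jun (-0.23 to 0.41), Egr1 (-0.34 to 0.53) and Zfp36 (-0.056 to 0.66) in arterial EC and Jun in PCV (-0.089 to 0.36), none of which had passed. The cause was not tested. Keeping doublets was not run, and the paper's subset labels gave no value because they cover 0 control cells here. No paired analysis was possible because the genotypes share 1 replicate number. CRP, LP CapEC, dividing cells and Cluster 4 rest on as few as 25, 44, 28 and 23 cells in a library, which limits their precision.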
